A study of Homo sapiens with 4 samples.

Results

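Olfactory receptor promoters of the OR4, OR5, OR8, OR51 and OR52 families were examined as an example of chromatin that is silent in the cells assayed. Members were the promoters whose gene symbol had OR, one of the family numbers 4, 5, 8, 51 or 52, a subfamily letter or letters and a member number, with nothing after it, so that symbols ending in P for pseudogene were left out. The choice used symbols alone and no measured value. It gave 174 members of 28775 promoters in the table. There were 50 members in OR4, 49 in OR5, 25 in OR8, 23 in OR51 and 27 in OR52. RefSeq lists 165 of them as protein coding and 9 as transcribed pseudogenes in spite of their symbols.

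The libraries were made by ATAC-seq, a method that maps accessible DNA through the adapters the Tn5 transposase inserts there, from HEK293T cells, a line from human embryonic kidney. Unedited wild-type (WT) cells gave 2 libraries and MORC2 knockout (KO) cells gave 2. MORC2 is an ATPase that acts with the silencing complex HUSH, and the comparison asks whether promoter accessibility differs when it is lost. Each KO library came from a pool of edited cells and not from a clone, and each pool was made with a guide of its own, so that a difference between the guides and one between KO replicates cannot be told apart. The methods name HEK293 as the edited cells, whereas the labels name HEK293T for all libraries. Apart from the MORC2 edit the labels give no other allele or treatment in either group.

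Olfactory receptors are G protein-coupled receptors of the sensory neurons of the nose, where each neuron uses a single receptor gene and keeps the others silent. Their genes stand in tandem clusters that arose by duplication, and in other tissues these clusters lie in compact chromatin with little transcription. OR51 and OR52 belong to the class I receptors, which also occur in fish, and OR4, OR5 and OR8 to the class II receptors, which expanded in land vertebrates. A few receptors, among them OR51E1 and OR51E2, are known to be expressed outside the nose, for example in prostate.

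The libraries held between 9435801 and 15152636 promoter fragments, of which 6119609 to 12036024 lay at nuclear promoters. KO replicate 2 was the deepest library. Levels are given as CPM, counts relative to library size, scaled by the trimmed mean of M-values (TMM). The MORC2 promoter itself, which shows only whether the promoter is open and cannot show the edit, was higher in KO (37.2 ± 0.359 CPM, SD, n = 2) than in WT (27.6 ± 2.77 CPM, SD, n = 2). The log2 fold change at MORC2 was 0.43 (edgeR quasi-likelihood test, adjusted p = 0.000279). Promoters of marker genes of the line and of olfactory neurons both held fragments, some at low level. Among genes known from HEK293T cells, the promoter of VIM held 79.2 CPM and that of NEFL 35.6 CPM over the 4 libraries, while that of the kidney factor PAX2 held only 6.58 CPM. The promoter of the olfactory neuron marker OMP was at 5.09 CPM and that of RTP1, which carries receptors to the cell surface, at 2.72 CPM. Of the other genes of the olfactory neuron list, CNGA2 at 3.00 and STOML3 at 5.65 CPM were also under the median promoter. ADCY3 at 40.0, GNG13 at 28.9 and GNAL at 18.9 CPM were above it.

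At the olfactory receptor promoters the counts were low in every library. The median member held 16 and 25 fragments in KO, then 17 and 18 in WT. The median of all promoters in the same libraries was 162, 250, 142 and 132 fragments. All 174 members lay under the median promoter in mean CPM, which was 14.7, and the highest member stood at percentile 43.8 of all promoters. In every library 167 members stayed under 4 CPM, and 3 exceeded 4 CPM in every library. Low levels were thus shared by almost the whole family set and were not carried by a subset of clusters.

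**Figure D1:**
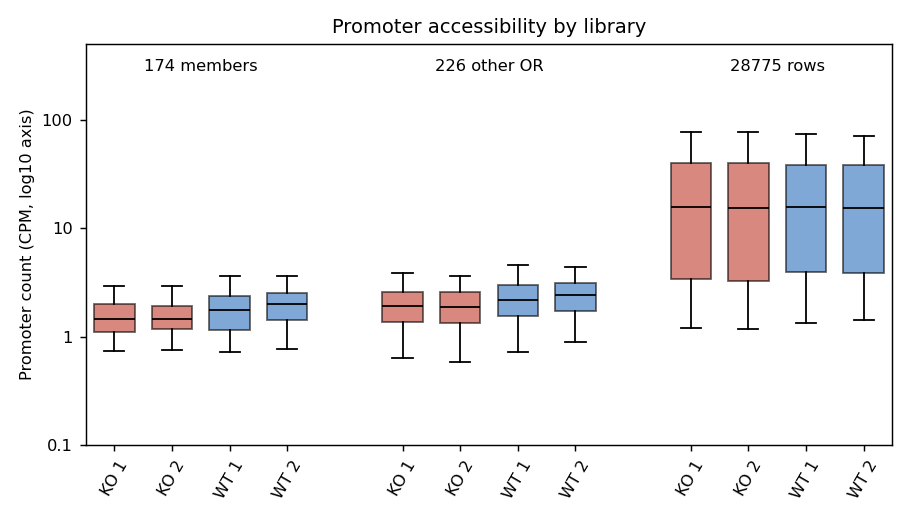
Accessibility in CPM (log axis) of the 174 olfactory receptor promoters, the 226 promoters of other olfactory receptor families and all promoters in each of the 4 libraries, as boxes of the median and quartiles with whiskers from the 5th to the 95th percentile and zeros left off. The member median is between 1.47 and 1.99 CPM in every library, far under the median of all promoters.

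The promoter of OR51D1, a class I receptor gene, was the most accessible. Its counts were 101 and 138 in KO and 85 and 86 in WT, with replicate 1 first here and at each member that follows, which is 9.26, 8.09, 8.83 and 9.53 CPM. It ranked highest of the members in all 4 libraries, and its KO and WT values overlapped. OR52N2 was next in all 4 libraries, with 57 and 104 fragments in KO and 53 and 59 in WT. OR51E1, known also as a prostate-expressed receptor, held 50 and 69 fragments in KO and 39 and 43 in WT. OR4D9, the most accessible class II member, held 49 and 63 in KO and 35 and 39 in WT. After scaling, the KO and WT values of OR52N2, OR51E1 and OR4D9 overlapped.

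At the low end, OR4F16 held 0 fragments in all 4 libraries, which allows up to 0.176 CPM in KO replicate 2, the deepest library, and up to 0.332 CPM in WT replicate 2, the shallowest. OR4F17 held 1 fragment in all, in WT replicate 1. OR4F3 held 0 in both KO libraries and 2 and 1 in WT replicates 1 and 2, which is within the 3 fragments that a count of 0 allows. The other OR4F members, OR4F6 and OR4F15, were not as low, at 2.82 and 2.22 CPM over the 4 libraries. OR4F16, OR4F17 and OR4F3 lie in near-identical copies close to chromosome ends, and the authors discarded poorly mapping pairs. Whether that step removed fragments at these promoters was not tested. The next lowest were OR4N4, with 4 and 8 fragments in KO and 8 and 5 in WT, and OR4M2, with 3 and 11 in KO and 7 and 8 in WT. OR5T3 held 11 and 8 fragments in KO and 5 and 6 in WT. In CPM, both KO values lay under both WT values at OR4N4 and OR4M2 and overlapped them at OR5T3.

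RefSeq promoter sequences, from 250 bases before to 50 after the gene start on GRCh38.p14, matched 130 of the 174 members. These letters describe the reference near each start and not the counted window, which was set on another assembly and is wider. The sequences of the 3 most and the 3 least accessible members are shown, among those with a single sequence in RefSeq and with over 5 fragments in all, because they mark the ends of the range. OR52N5, at 0.762 CPM, lay under OR4C15 but has more than a single start and was passed over. Capitals mark matches on either strand to TATAAA, the usual core of the TATA box, to TAATTA, a homeodomain core, or to CCCNNGGG, the core that EBF factors bind. Homeodomain and EBF motifs are known from receptor promoters in olfactory neurons. OR52N2 lies at chr11:5808674-5808973, OR51E1 at chr11:4643732-4644031 and OR4D9 at chr11:59511289-59511588. OR4C15 lies at chr11:55554219-55554518, OR5T3 at chr11:56252004-56252303 and OR4M2 at chr15:22080277-22080576. All are on the plus strand and are printed 5′ to 3′, the 3 most accessible first.
OR52N2: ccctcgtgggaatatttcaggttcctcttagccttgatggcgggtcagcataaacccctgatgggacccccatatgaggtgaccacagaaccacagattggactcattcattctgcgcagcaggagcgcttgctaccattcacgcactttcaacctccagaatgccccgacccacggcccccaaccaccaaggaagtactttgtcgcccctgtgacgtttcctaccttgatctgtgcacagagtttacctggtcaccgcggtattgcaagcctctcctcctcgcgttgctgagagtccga
OR51E1: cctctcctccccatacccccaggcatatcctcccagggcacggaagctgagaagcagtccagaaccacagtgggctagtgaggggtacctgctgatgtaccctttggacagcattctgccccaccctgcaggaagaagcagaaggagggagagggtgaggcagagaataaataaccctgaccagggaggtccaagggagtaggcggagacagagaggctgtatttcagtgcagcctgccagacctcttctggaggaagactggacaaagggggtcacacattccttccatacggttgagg
OR4D9: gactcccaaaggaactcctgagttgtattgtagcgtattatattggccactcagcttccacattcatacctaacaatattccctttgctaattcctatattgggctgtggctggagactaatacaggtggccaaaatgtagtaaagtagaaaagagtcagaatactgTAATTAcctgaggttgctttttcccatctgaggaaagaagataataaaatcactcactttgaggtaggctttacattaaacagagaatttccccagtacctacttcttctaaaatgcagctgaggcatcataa
OR4C15: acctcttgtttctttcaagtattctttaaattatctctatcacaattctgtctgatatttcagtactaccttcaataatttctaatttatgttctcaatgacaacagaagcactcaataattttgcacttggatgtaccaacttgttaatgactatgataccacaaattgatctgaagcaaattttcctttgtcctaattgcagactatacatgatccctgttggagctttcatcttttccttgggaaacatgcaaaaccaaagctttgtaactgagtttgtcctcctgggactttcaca
OR5T3: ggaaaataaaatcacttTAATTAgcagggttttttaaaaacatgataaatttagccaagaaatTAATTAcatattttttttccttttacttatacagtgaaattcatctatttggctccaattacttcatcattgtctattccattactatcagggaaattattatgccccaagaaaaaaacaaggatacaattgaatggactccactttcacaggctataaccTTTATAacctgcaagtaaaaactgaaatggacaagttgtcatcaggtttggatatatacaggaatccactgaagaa
OR4M2: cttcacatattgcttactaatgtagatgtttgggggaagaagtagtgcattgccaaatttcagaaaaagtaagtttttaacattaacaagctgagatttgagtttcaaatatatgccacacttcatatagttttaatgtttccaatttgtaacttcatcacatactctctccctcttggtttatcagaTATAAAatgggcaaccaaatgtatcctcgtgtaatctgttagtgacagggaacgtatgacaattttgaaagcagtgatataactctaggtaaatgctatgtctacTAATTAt

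The G+C content of these stretches was 55.3% at OR52N2, 57.0% at OR51E1 and 39.0% at OR4D9, against 34.3% at OR4C15, 30.3% at OR5T3 and 33.0% at OR4M2. OR52N2 held 14 CpG dinucleotides, the most of any member with a sequence, followed by OR51S1 with 6. OR4C15 and OR5T3 held 0.

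As a group the olfactory receptor promoters were poor in G+C and in CpG. Their median G+C content was 36.5%, against 61.3% over the 19554 promoters with a sequence and 44.0% over the 2673 other promoters with a sequence in the 2 lowest of 10 abundance classes. The median member had 1 CpG in 300 bases and 27.7% of members had none, while the median promoter had 19 and 2.55% had none. In the low-abundance promoters the median was 3 and 10.2% had none. They were thus poorer in CpG than other promoters of low accessibility, not only poorer than open ones.

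Matches to the A- and T-rich motifs were frequent. TATAAA occurred in 38.5% of member promoters, in 10.3% of all and in 24.8% of the low-abundance ones. TAATTA occurred in 27.7%, 3.96% and 10.2% in the same order. The G- and C-rich CCCNNGGG occurred in 6.92%, 20.4% and 7.52%. In the other olfactory receptor promoters TATAAA occurred in 31.8%, TAATTA in 19.55% and CCCNNGGG in 7.82%. TAATTA and CCCNNGGG read alike on both strands and neighbouring matches may overlap. The families differed in these letters. The median G+C content was 34.0% in OR5, 36.0% in OR4, 38.7% in OR8, 39.7% in OR51 and 40.0% in OR52, over 45, 33, 19, 11 and 22 promoters. TAATTA was most frequent in OR4, at 36.4%, and least in OR51, at 9.09%. All of these shares move with base composition and were not tested apart from it.

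Between KO and WT, no member promoter passed the test. Of the 174 members 163 had enough fragments to be tested, and 0 were called at an adjusted p under 0.05 (edgeR quasi-likelihood test). Among all 27647 promoters tested, 4.45% were called in either direction, 3.45% higher and 0.995% lower in KO. This background of 1229 calls depended on scaling, with 394 under loess offsets and 20 under total count. At an unadjusted p under 0.05, 22 members (13.5%) passed against 20.3% of all promoters. Of these, 21 were lower in KO (12.9%, against 8.87% of all) and 1 was higher (0.613%, against 11.5%). By DESeq2 0 members were called and 0 had an unadjusted p under 0.05, but that test called only 6 of all promoters. The smallest adjusted p of any member was 0.0668, at OR52E6, chosen after its values were seen, which held 12 and 16 fragments in KO and 18 and 21 in WT. Without WT replicate 1, 4 members were called lower (OR52K2, OR51A7, OR4E1 and OR5H6), in a fit that called 1637 promoters in all.

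Most members had a fold change under 0. The median log2 fold change over the tested members was -0.29, with quartiles of -0.50 and -0.045, and 129 of 163 (79.1%) lay under 0. The median over all tested promoters was -0.017. Both KO libraries lay under both WT libraries at 55 members (33.7%), against 25.4% of all promoters. Both lay above at 9 members (5.52%), against 25.2% of all. With offsets that follow abundance in each library (loess), the median of the members became 0.021 and 48.5% lay under 0. The sign of the members' median thus differed between the fit without and the fit with a term for abundance.

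Promoters of like abundance showed the same displacement. The 5566 other promoters between 1.08 and 3.39 CPM, the 5th and 95th percentiles of the tested members, had a median log2 fold change of -0.27, and 81.1% lay under 0. The 145 members in that range had a median of -0.31, and 81.4% lay under 0. The others were somewhat more abundant, with a median of 2.31 CPM against 1.75 CPM. Of the other promoters 72 (1.29%) were called lower and 0 higher, and of the 145 members 0 were called, too few to set against that share. Both KO libraries lay under both WT libraries at 42.9% of the others and at 35.9% of the members in the range. In the lowest abundance class these shares were 39% and 30%, but in the next they were 44% and 50%.

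The displacement followed abundance across the table. In the lowest of the 10 abundance classes the 122 members had a median of -0.28 and the 2642 others one of -0.27. In the next class the 32 members had a median of -0.36 and the 2733 others one of -0.27. In the third class 7 members had a median of -0.044, and all its promoters one of -0.24. The highest class had a median of 0.082, so that the fold change rose with abundance over the table. The loess medians of members and others were 0.027 and 0.031 in the lowest class, and -0.079 and 0.0031 in the next.

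**Figure D2:**
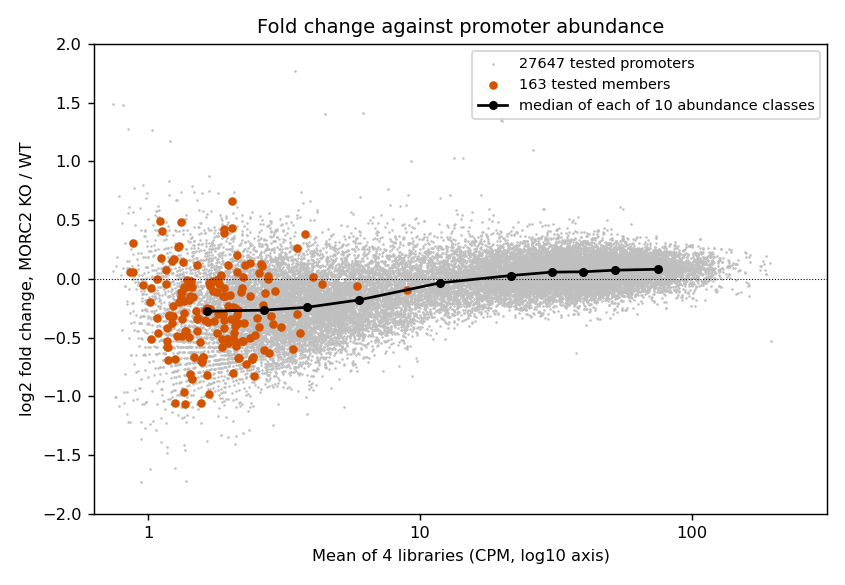
Log2 fold change of KO against WT plotted against mean CPM (log axis) for all tested promoters and for the tested olfactory receptor promoters, without the few promoters, nearly all mitochondrial, above the axis. The members lie at the left, where the medians of members and others in the lowest abundance class are -0.28 and -0.27.

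Summed over the family, the KO shares of nuclear promoter fragments lay under the WT shares by more than counting error. Counting error leaves out variation between libraries. Members held 0.0411% of nuclear promoter fragments in KO replicate 1 (3150 fragments, 95% Wilson interval 0.0397 to 0.0426%) and 0.0409% in KO replicate 2 (4923 fragments, 0.0398 to 0.0421%). They held 0.0490% in WT replicate 1 (3237 fragments, 0.0474 to 0.0508%) and 0.0524% in WT replicate 2 (3208 fragments, 0.0506 to 0.0543%). Both KO libraries lay under both WT libraries, with a ratio of the means of 0.808. The ratio was 0.803 over the other promoters of the 2 lowest abundance classes and 0.808 over the other olfactory receptor promoters, so the family sum moved by about as much as other promoters of low abundance. An exact permutation test of 2 against 2 libraries cannot give a two-sided p below 0.3333, and none is given. The share depends on what it is a share of, and of all promoter fragments, mitochondrial ones included, the ratio was 0.915. On that base members held 0.0280% and 0.0325% in KO and 0.0321% and 0.0340% in WT, so that the groups overlapped.

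Apart from a shift shared by all members, member counts varied between most pairs of libraries by little more than counting noise. Expected counts came from the members' own totals in each pair, so a shift of the whole set did not enter this measure. A chi-square of the member counts per degree of freedom was 0.884 between the KO libraries, 1.37 between the WT libraries and between 1.06 and 1.22 across the groups. The WT libraries thus differed from each other, member by member, by more than either did from a KO library. At the 5375 other promoters of the 2 lowest abundance classes the same measure ran from 1.05 to 1.11 over all pairs of libraries. Members lay above that range for the WT pair and for KO replicate 1 against WT replicate 1 (1.22). They lay under it for the KO pair. The member values rest on 171 to 173 promoters in each pair, against 5375, and so carry more sampling error. Whether they differ from that range by more than such error was not tested. Over all tested nuclear promoters the measure was 1.20 and 1.33 within groups and 1.52 to 2.78 across them. Most of those promoters held more fragments than the members, and how the measure depends on fragment number was not tested.

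The precision per promoter was low. The median standard error of the log2 fold change was 0.34 at the members and 0.12 over all tested promoters. The 95% interval included 0 at 141 of 163 members, lay between -1 and 1 at 84 and reached beyond at 79. At promoters of like abundance the smallest change called was 0.79 on the log2 scale and the median called change was 1.03 in size. All of those calls were lower in KO, and the size of change needed for a call was not tested.

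The highest fold changes among members with a mean of at least 20 fragments were at class I and class II genes alike. OR51S1 held 30 and 39 fragments in KO and 19 and 10 in WT, or 2.75, 2.29, 1.97 and 1.11 CPM. Both KO values lay above both WT values, and the log2 fold change was 0.67 ± 0.32 (SE, adjusted p = 0.219), with a range of 0.32 to 1.15 when a WT library was left out. OR4D5 held 26 and 39 in KO and 14 and 18 in WT and had a log2 fold change of 0.44. OR4X1 held 16 and 47 in KO and 9 and 22 in WT, so that replicate 2 was the higher one in both groups and the groups overlapped. OR5H2 held 27 and 32 in KO and 12 and 18 in WT and had a log2 fold change of 0.39. At OR52W1, which was also among the most accessible members, KO held 52 and 65 and WT 27 and 33, for a log2 fold change of 0.38 (adjusted p = 0.365). In CPM the groups did not overlap at OR51S1, OR4D5 and OR52W1 and overlapped at OR5H2. These members were picked for high fold changes. Both KO values lay above both WT values at 5.52% of the members and at 25.2% of all promoters.

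The lowest fold changes were at OR4E1, OR8A1, OR8B8, OR51C1 and OR51E2. OR4E1 held 20 and 29 fragments in KO and 24 and 34 in WT, or 1.83, 1.70, 2.49 and 3.77 CPM. Its log2 fold change was -0.82 ± 0.29 (SE, adjusted p = 0.0792), but it was -1.10 without WT replicate 1 and -0.50 without WT replicate 2. OR8A1 held 18 and 23 in KO and 21 and 27 in WT, with a log2 fold change of -0.81. OR8B8 held 20 and 28 in KO and 28 and 25 in WT, with -0.72 on the same scale. OR51C1 and OR51E2 had identical counts, 23 and 28 in KO and 30 and 25 in WT, with -0.69, and are not separate observations. In CPM both KO values lay under both WT values at all 5 of these promoters, which were picked for low fold changes, so this order is no separate result. Both KO values lay under both WT values at 33.7% of the members, 25.4% of all promoters and 42.9% of other promoters of like abundance.

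At the 4 most accessible members the fold changes were close to 0. The log2 value was -0.096 at OR51D1 (95% interval -0.41 to 0.22, adjusted p = 0.770), -0.064 at OR52N2 (adjusted p = 0.882), -0.044 at OR51E1 (adjusted p = 0.934) and 0.018 at OR4D9 (adjusted p = 0.974). At OR5AU1, with 29 and 57 fragments in KO and 45 and 34 in WT, it was -0.46 (adjusted p = 0.260), and both KO values lay under both WT values in CPM. The signs at OR51D1, OR52N2 and OR51E1 turned when libraries were scaled by total count.

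**Figure D3:**
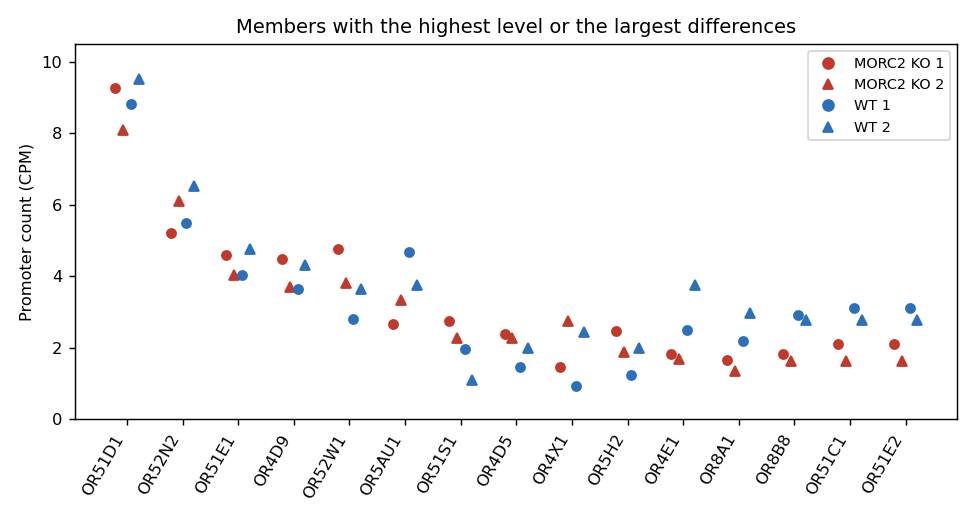
Accessibility in CPM of the named members in each of the 4 libraries, with a marker for each library. OR51D1 stands highest in all libraries, and the KO markers lie above the WT markers at OR51S1 and under them at OR4E1.

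The families shared the low level, and all had a median fold change under 0, the smallest in size in OR4. The median log2 fold change was -0.18 over 41 tested OR4 members, -0.27 over 48 OR5, -0.37 over 25 OR8, -0.33 over 23 OR51 and -0.29 over 26 OR52, with 0 called in each. With the loess offsets the medians were 0.13, 0.027, -0.050, -0.026 and 0.016. Of the tested members 63.4% lay under 0 in OR4, 81.25% in OR5, 92.0% in OR8, 91.3% in OR51 and 76.9% in OR52. Both KO libraries lay under both WT libraries at 8 of 41 OR4, 16 of 48 OR5 and 10 of 25 OR8 members. They did so at 10 of 23 OR51 and 11 of 26 OR52 members. The same held at 25.4% of all promoters and 42.9% of those of like abundance. The 9 transcribed pseudogenes had a median of -0.45, on few promoters.

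**Figure D4:**
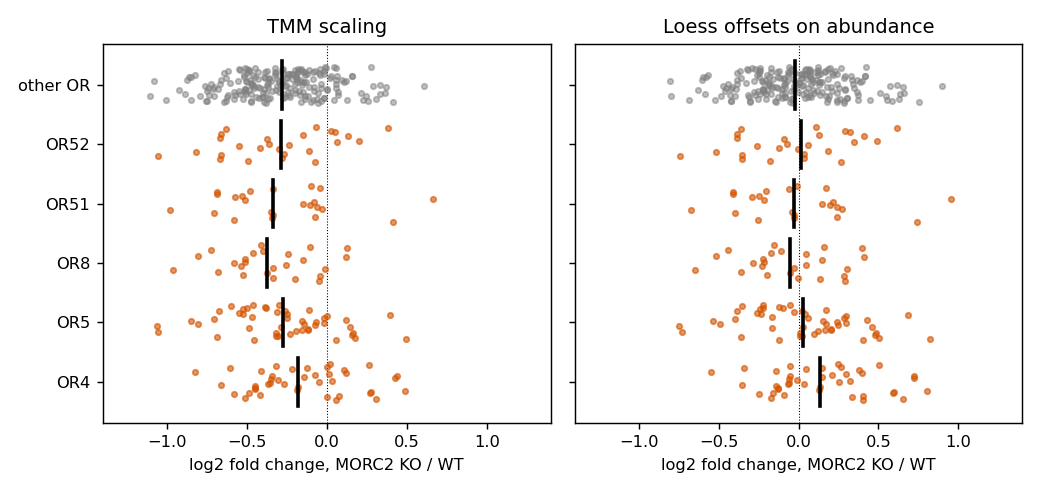
Log2 fold change of each tested member by family, with points ordered by abundance within a family and a bar at the family median, under TMM scaling and with loess offsets. The medians run from -0.37 in OR8 to -0.18 in OR4 under TMM and from -0.050 to 0.13 with the offsets.

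Class I promoters were somewhat more accessible than class II promoters in every library. The mean level of the 50 class I members was 2.03 and 1.96 CPM in KO and 2.37 and 2.38 CPM in WT. The mean of the 124 class II members was 1.51 and 1.54 CPM in KO and 1.76 and 1.91 CPM in WT. The order held in 4 of 4 libraries, and the KO and WT values of each class did not overlap. The log2 ratio of KO to WT was -0.25 in class I and -0.26 in class II. Members of a class share clusters, so they are not independent of each other.

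Members fell into 19 runs, 6 of them of a single member, along the order in which the promoters were deposited. Within a run, neighbouring members had at most 10 other promoters between them, and genomic positions were not checked. Of the members with a RefSeq sequence, 104 of 130 were on chromosome 11. The longest runs were that from OR4B1 to OR5AK2, with 57 members, and that from OR52B4 to OR52W1, with all 50 class I members. The run of 57 had a mean level of 1.20 and 1.25 CPM per member in KO and 1.32 and 1.53 CPM in WT. The run of 50 had 2.03 and 1.96 in KO and 2.37 and 2.38 in WT. The level was lower in the OR4B1 to OR5AK2 run in all 4 libraries, and KO lay under WT in both runs.

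The log2 ratio of summed CPM, KO over WT, was -0.22 in the OR4B1 to OR5AK2 run and -0.25 in the OR52B4 to OR52W1 run. It was -0.24 over the 13 members from OR8D4 to OR8A1, -0.19 over the 14 from OR4Q3 to OR4N5 and -0.32 over the 10 from OR5AC2 to OR5K2. It was -0.28 over the 7 members from OR5AN1 to OR4D9 and -0.36 over the 5 from OR5B17 to OR5B21. All of these runs leaned the same way.

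The OR51 and OR52 run shows accessible promoters among silent ones. It held 8 other olfactory receptor promoters and 19 promoters of other genes. The promoter of TRIM68, a ubiquitin ligase gene, had 48.7 and 51.5 CPM in KO and 43.7 and 44.3 CPM in WT. OR51D1, the most accessible member, is the next promoter in the order, while OR52I1, just before TRIM68, held 1.96 CPM. TRIM21, which encodes an intracellular antibody receptor, had 17.4 CPM, and TRIM5, a retroviral restriction factor, 17.1 CPM. The members on either side of TRIM21, OR52B4 and OR52K2, held 2.09 and 1.65 CPM. Of the 19 promoters of other genes 5 were over 10 CPM. The beta-globin genes, which lie within the run and are expressed in red cell precursors, were as low as the receptors, from 1.18 to 2.29 CPM. Their median log2 fold change was -0.33, with 0 of 6 called.

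**Figure D5:**
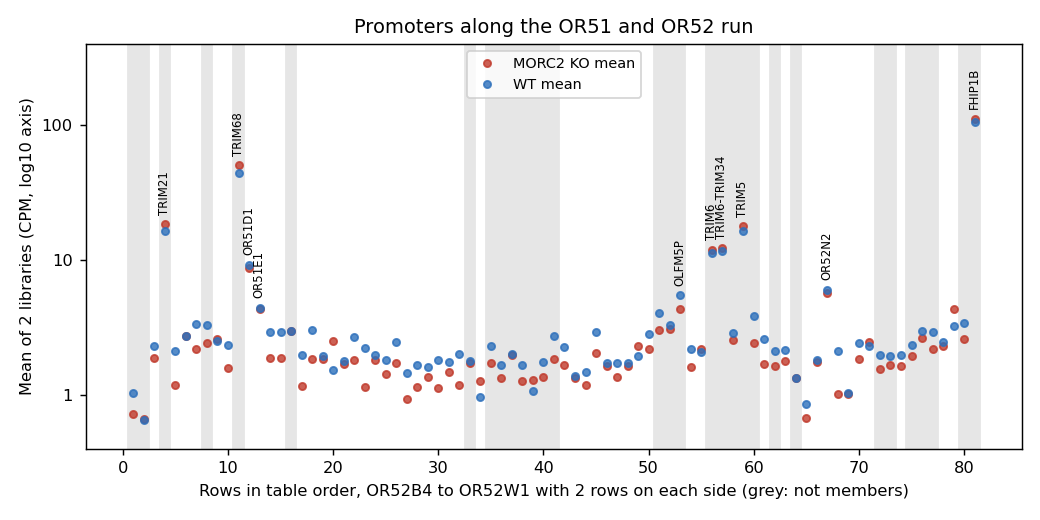
Mean CPM (log axis) of each promoter in the OR51 and OR52 run, in KO and WT. Promoters are in deposited order, not to genomic scale, with those of genes that are not members in grey. Most members lie near 2 CPM, and TRIM68 stands at 47.1 CPM over the 4 libraries. OR51D1, just after it, is the highest member, and OR52I1, just before it, stands at 1.96 CPM.

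Other silent tandem families gave like values. Over 210 other olfactory receptor promoters tested, the median log2 fold change was -0.28, and 2 were called lower and 0 higher in KO. These were OR7G1, with 19 and 24 fragments in KO and 30 and 31 in WT (log2 fold change -1.08, adjusted p = 0.0160), and OR6N1, with 17 and 39 in KO and 34 and 34 in WT (-0.86, adjusted p = 0.0425). With the loess offsets their adjusted p became 0.159 and 0.297. Olfactory receptor promoters with pseudogene symbols had a median of -0.22 over 18 tested.

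Among keratin-associated protein (KRTAP) genes, which build hair, the median was -0.21 over 89 promoters, and KRTAP19-8 and KRTAP2-2 were called lower (-1.09 and -1.39, adjusted p = 0.0161 and 0.0360). With the loess offsets their adjusted p became 0.158 and 0.240. Bitter taste receptor (TAS2R) promoters had a median of -0.26 over 24 and beta-defensin (DEFB) promoters one of -0.39 over 27, with 0 called in either list. With the loess offsets TAS2R46 was called, with 18 and 22 fragments in KO and 4 and 7 in WT (adjusted p = 0.0421, against 0.0850 without them). At an unadjusted p under 0.05 there were 3 TAS2R and 6 DEFB promoters.

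As a list, the genes that act with olfactory receptors were not silent in the same way, though several lay in the receptors' range. The list of 26 promoters held transduction genes, such as GNAL (the olfactory G protein subunit), ADCY3 (the adenylyl cyclase) and CNGA2 (the cation channel), and genes of receptor choice, such as LHX2, LDB1 and KDM1A. Their median level was 23.1 CPM, and 17 of 26 exceeded the median promoter. ADCY3 held 40.0 CPM and GNAL 18.9 CPM, while CNGA2 held 3.00 CPM, within the range of the receptors. RTP2, RTP1, CNGB1, CNGA4, OMP and STOML3 also lay within that range, from 2.36 CPM at RTP2 to 5.65 CPM at STOML3. The range reached 8.93 CPM at OR51D1, but the upper quartile of the members was 2.13 CPM, under all of these genes. The median log2 fold change was -0.033, with 0 called, and at an unadjusted p under 0.05 there were 4 higher and 1 lower.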

How the data were processed

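The deposited table held raw counts of fragments per promoter and library, which the authors made from paired-end reads aligned with bowtie2 to the CHM13 assembly, after removal of poorly mapping pairs and of duplicates (Picard). Their methods describe a 2 kb window around each gene start. Whether the table was counted with featureCounts of Subread 2.0.6, which the submitters' processing notes list, is not given in the sources used here. Neighbouring promoters can share fragments, and 14 members lay within 25% of the promoter before them in every library.

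NCBI Gene IDs were given symbols from RefSeq (GRCh38.p14), whose gene coordinates were not used because the assembly differs. Counts were filtered with filterByExpr, scaled by TMM and tested in edgeR 4.0.16 under R 4.3.3 (quasi-likelihood F-test, legacy fit, no covariates, all 4 libraries), two-sided, with Benjamini-Hochberg adjustment over 27647 promoters. CPM are TMM-scaled. The p-values measure the spread between 2 libraries per group, described as independent, and rest on spread shared across promoters. Wilson intervals and limits for a count of 0 cover counting error only. Scripts were tested on simulated data.

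Members, lists and tests were chosen with earlier results of these data known. Named members were those called (none), the 6 with the highest and 6 with the lowest mean CPM, and the 5 highest and 5 lowest fold changes at a mean count of at least 20, with called promoters of each comparison list. Printed sequences were those of the 3 highest and 3 lowest members with a single RefSeq promoter and over 5 fragments. The 3 members with more than a single promoter entered the sequence summaries with the first listed. Alternatives covered scaling, filters, loess offsets, a replicate block, the edgeR 4 fit, mitochondrial rows, DESeq2 1.42.0 and leaving out each library. Counting rows with identical counts once, and DESeq2 without its independent filter, were added after seeing the data. The WT peak list (CHM13 positions, with scores, signal, fold enrichment and −log10 values by the authors) was not used here.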

Additional observations from a re-analysis of the deposited data

How the results depend on the processing

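The number of members called was 0 in all settings run except when a library was left out, where it was 0 to 4. The 4, without WT replicate 1, were OR52K2, OR51A7, OR4E1 and OR5H6, all lower in KO. DESeq2 gave no adjusted p to any tested member with its independent filter and called 0 without it. The median fold change of members minus that of all promoters was -0.27 on the log2 scale, -0.29 to -0.25 with a library left out, and 0.020 with loess offsets, which remove the trend with abundance by construction. Scaling by total count moved the median of all promoters to 0.12 and that of members to -0.14. The ratio of the members' shares, 0.808, was 0.782 to 0.836 with a library left out. It was 0.915 of all promoter fragments, where the KO and WT shares overlapped. Replicate numbers did not pair libraries (correlation 0.000263), and with a replicate block 0 members were called, the median difference was -0.27 and calls over all promoters fell from 1229 to 765. Over all promoters 41 were called without KO replicate 2 and 230 without WT replicate 2. Small fold changes turned sign. With total count OR51D1 was at 0.046, OR52N2 at 0.076 and OR51E1 at 0.099. With loess offsets OR52N2 was at 0.11 and OR51E1 at 0.17. With a library left out OR51D1 ran from -0.16 to 0.021, OR52N2 from -0.19 to 0.063, OR51E1 from -0.16 to 0.074, OR4D9 from -0.11 to 0.19 and OR4X1 from -0.17 to 1.26. Others kept their sign but moved by over 1.5 times, OR51S1 from 0.32 to 1.15, OR4D5 from 0.22 to 0.67, OR5H2 from 0.084 to 0.76, OR52W1 from 0.20 to 0.58, OR5AU1 from -0.66 to -0.29 and OR4E1 from -1.10 to -0.50. The causes were not tested. Offsets on G+C content were not run, because under 80% of members had a sequence. The depth, about 16 to 25 fragments at the median member, limits what single promoters can show.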
